A study of Mus musculus with 18 samples.

Results

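The endothelial ETS, SoxF and Tal1 factors described here are 8 of the 22180 genes named on the array: Erg, Fli1 and Ets1 of the ETS family, Sox7, Sox17 and Sox18 of the SoxF family, and Tal1 with its partner Lmo2. They were chosen by gene symbol, and each had 1 probe set carrying its symbol alone. All 8 passed the filter on dim genes. The question addressed was how the transcription factors that set up and maintain endothelial identity differed between cells sorted from normal muscle and from hedgehog-driven tumors. The study's title places the origin of such rhabdomyosarcomas in endothelial progenitors.

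Every mouse carried aP2-Cre, Cre recombinase under the Fabp4 promoter, whose gene encodes a fatty acid carrier of fat cells and capillaries, and a tdTomato reporter, so Tomato marks cells with present or past Cre activity (marked cells below, against unmarked Tomato-negative ones). Normal sternocleidomastoid muscle, a neck muscle, came from B6;SJL mice at postnatal day 21 with the genotype aP2-Cre/+;tdTomato/+ and gave Tomato-positive and Tomato-negative cells, 3 arrays each. The genotype of the Tomato-positive muscle array of repeat 1 is labelled aP2-Cre/+;tdTomato. Tumors came from BJ;SJL;B6.129 mice with the genotype aP2-Cre/+;tdTomato/+/;SmoM2/+, which adds an active form of the hedgehog transducer Smoothened, and gave Tomato-positive/Pecam1-positive, Tomato-positive/Pecam1-negative and Tomato-negative/Pecam1-negative cells, 4 arrays each. Tumor repeats 1 to 3 date from day 48, and the fourth from day 38. Tumor and muscle therefore also differed in strain and age, and these differences cannot be told apart from the tumor genotype.

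ETS factors bind a short purine-rich core found in the enhancers of most endothelial genes, and Erg and Fli1 hold mature endothelium in its differentiated state, while Ets1 is tied to angiogenic growth. Fli1 and Ets1 are also made by many blood cells. Sox7, Sox17 and Sox18 form the SoxF group, which acts in vessel growth, arterial identity and, for Sox18, the start of the lymphatic programme through Prox1. Tal1 is a basic helix-loop-helix factor needed for the first blood and endothelial precursors, and Lmo2 is the adaptor that bridges it to GATA factors and to Ldb1.

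The 250 bases before a transcription start are shown for Erg and Tal1, to set beside the levels the motif letters that belong to the 3 families. RefSeq sequences on GRCm38.p6 held 3 starts of Erg and 2 of Tal1. The first line is the Erg window with a match to every motif searched (chr16:95459349-95459598, minus strand), and the second is the upstream Tal1 window (chr4:115056176-115056425, plus strand). Capitals mark the ETS core GGAA, which reads TTCC where it lies on the other strand.
Erg: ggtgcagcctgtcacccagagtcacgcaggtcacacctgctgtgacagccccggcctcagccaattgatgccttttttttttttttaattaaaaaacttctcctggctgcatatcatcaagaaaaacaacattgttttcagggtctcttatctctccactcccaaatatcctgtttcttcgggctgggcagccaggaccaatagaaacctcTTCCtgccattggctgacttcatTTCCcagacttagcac
Tal1: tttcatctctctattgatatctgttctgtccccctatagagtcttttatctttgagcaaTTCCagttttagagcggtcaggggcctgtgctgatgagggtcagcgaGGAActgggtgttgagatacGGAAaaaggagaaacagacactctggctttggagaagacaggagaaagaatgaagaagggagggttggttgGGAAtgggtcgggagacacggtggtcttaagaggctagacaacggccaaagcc

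Motifs were searched on both strands. The Erg window held 2 matches to GGAA, 39 and 16 bases before the start, and 1 of them was part of the longer form AGGAAG, which contains GGAA. It also held 1 match to the Sox letters ACAAT, 1 to the GATA letters GATAA and 2 to the E-box CANNTG, the form bound by Tal1 dimers. The Tal1 window held 4 matches to GGAA and 1 to GATAA, and none of the other 3 motifs. These letters are common in windows of this length: among 32851 of them, 93.4% held GGAA, 29.5% AGGAAG, 27.7% ACAAT, 22.6% GATAA and 66.2% CANNTG. The first Erg window held no match to any of the 5 motifs. A match describes the letters and does not show binding. Among protein-coding genes, Fli1 and Ets1 are direct neighbours on chromosome 9, and Erg lies beside another ETS gene, Ets2, on chromosome 16.

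Values are log2 intensities as deposited, 1 per array and listed in the order of the repeat numbers, and arrays of a group correlated at r = 0.977 to 0.994 across genes. Pecam1, the gated gene, averaged 11.88 ± 0.21 (SD, n = 4) in the Pecam1-positive tumor arrays and read 6.91 to 7.84 in the Pecam1-negative ones. Over 11 other blood endothelial markers (Cdh5, Kdr, Tie1 and others), the array means were 10.36 to 10.52 in Tomato-positive muscle cells and 10.39 to 11.09 in Tomato-positive/Pecam1-positive tumor cells. They were 6.82 to 7.18 in Tomato-negative muscle cells, 5.98 to 6.30 in Tomato-positive/Pecam1-negative tumor cells and 5.74 to 6.45 in Tomato-negative/Pecam1-negative tumor cells. The first 2 groups thus carried the endothelial markers and are called the endothelial groups below. Salivary gland markers averaged 4.61 to 5.87 and 4.66 to 7.0 in the Tomato-positive and Tomato-negative muscle arrays, against at most 4.76 in any tumor array. Among the Pecam1-positive tumor arrays, repeat 4 (day 38) stood apart, with the lowest blood endothelial mean (10.39, against 10.83 to 11.09) and higher means of pan-leukocyte (7.03, against 5.76 to 5.96), macrophage (6.91, against 6.0 to 6.08) and myogenic genes (6.52, against 5.61 to 5.84). In tumor, the mean of the arrays sharing a repeat number was the same for all 4 numbers at every probe set, within 7.67e-05, so variation common to a repeat is not in the values and p-values tend to be too small. A value high for its group in 1 tumor array is therefore balanced by low ones in the same repeat. In repeat 4 the unmarked array had the lowest pan-leukocyte (8.58) and myogenic (7.07) means of its group and the highest blood endothelial mean (6.45). Which array of repeat 4 departed thus cannot be told. The labels call the arrays biological repeats. In these sorted bulk samples, fewer cells of a type and less RNA per cell cannot be told apart.

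All 8 genes were higher in the endothelial groups than in the other cells of the same tissue, though the call for Lmo2 in muscle depended on the settings. In muscle, 8 of 8 were higher in Tomato-positive than in Tomato-negative cells at a Benjamini-Hochberg adjusted p of 0.05 with limma, where 19.1% of the 16011 genes tested were. With repeats fitted as blocks 7 of 8 were (15.6% of all genes), and Lmo2 did not pass (adjusted p = 0.122). In tumor, 8 of 8 were higher in Tomato-positive/Pecam1-positive than in Tomato-positive/Pecam1-negative cells (21% of all genes) and 8 of 8 were higher than in Tomato-negative/Pecam1-negative cells (20.5% of all genes). The median change of the 8 genes was 3.16, 2.82 and 2.62 on the log2 scale in these comparisons, beside medians over all tested genes of -0.00, 0.01 and 0.02. In none of the 3 comparisons did any gene's arrays overlap between the groups, which held for 23.4%, 20.5% and 18.9% of all genes in this direction. Both tumor comparisons share the Pecam1-positive arrays, and without repeat 4 of these 8 of 8 genes were higher in each.

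**Figure D1:**
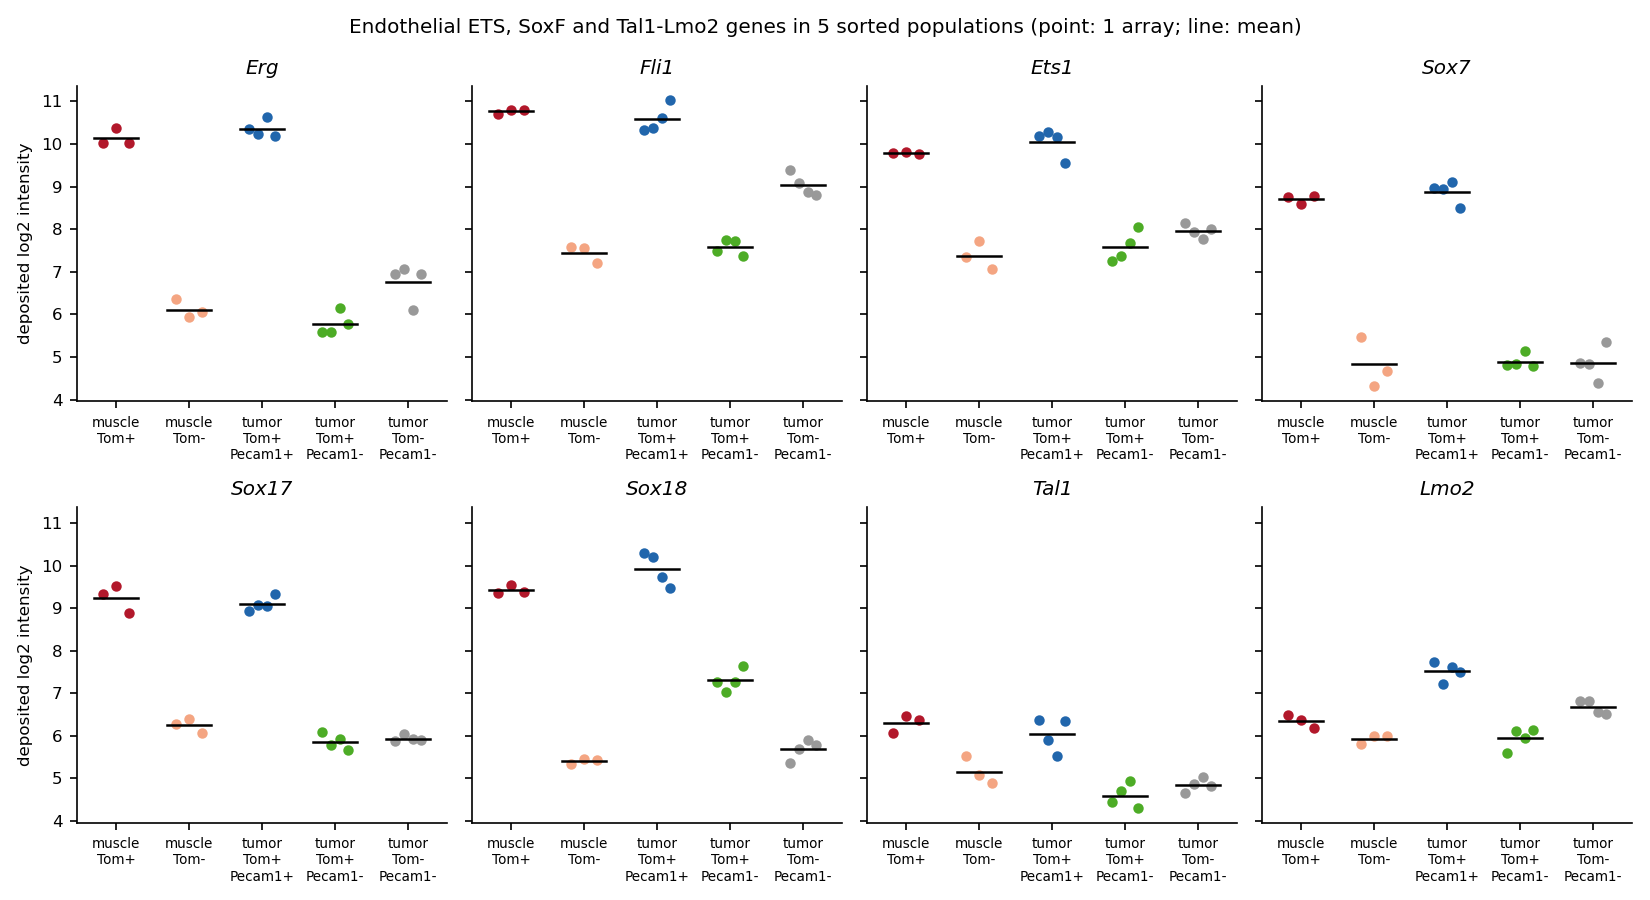
Deposited log2 intensity of the 8 genes (vertical axis) in the 5 sorted groups, with 1 point per array and a line at the group mean. The muscle Tom+ and tumor Tom+/Pecam1+ points lie above the other 3 groups for Erg, Fli1, Ets1, Sox7, Sox17 and Sox18, Sox18 is raised in tumor Tom+/Pecam1- cells, and Lmo2 is highest in tumor Tom+/Pecam1+ cells.

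Among the ETS genes, Erg, the factor most restricted to endothelium among the 3, read 10.02, 10.37 and 10.03 in Tomato-positive and 6.36, 5.94 and 6.04 in Tomato-negative muscle cells. In tumor it read 10.35, 10.23, 10.64 and 10.18 in Tomato-positive/Pecam1-positive cells, 5.59, 5.59, 6.14 and 5.77 in Tomato-positive/Pecam1-negative cells, and 6.95, 7.07, 6.11 and 6.94 in Tomato-negative/Pecam1-negative cells. Every endothelial array stood far above every other array, and the third unmarked tumor array fell within the range of the marked Pecam1-negative ones. The change was 4.02 ± 0.22 (SE) on the log2 scale in muscle (limma, adjusted p = 1.79e-10), a 16.3-fold difference. Against the marked and unmarked Pecam1-negative tumor cells it was 4.58 ± 0.19 and 3.58 ± 0.19 (limma, adjusted p = 3.07e-12 and 7.04e-11).

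Fli1, the ETS factor shared by endothelium and blood cells, read 10.70, 10.80 and 10.81 in Tomato-positive and 7.57, 7.56 and 7.20 in Tomato-negative muscle cells. The tumor arrays read 10.34, 10.38, 10.61 and 11.03 in Pecam1-positive cells, 7.48, 7.74, 7.72 and 7.37 in marked Pecam1-negative cells, and 9.40, 9.08, 8.88 and 8.81 in unmarked cells. The unmarked tumor cells thus lay between the other groups and overlapped none of them. Fli1 was higher by 3.33 ± 0.18 in muscle, by 3.01 ± 0.15 over marked Pecam1-negative tumor cells and by 1.54 ± 0.15 over unmarked tumor cells (limma, adjusted p = 1.63e-10, 5.03e-11 and 2.87e-07).

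Ets1, the angiogenesis-linked member, read 9.78, 9.82 and 9.76 in Tomato-positive and 7.34, 7.73 and 7.06 in Tomato-negative muscle cells. Tumor arrays gave 10.19, 10.29, 10.16 and 9.55 in Pecam1-positive cells, 7.26, 7.37, 7.67 and 8.05 in marked Pecam1-negative cells, and 8.15, 7.94, 7.77 and 7.99 in unmarked cells. Both endothelial groups stood apart. The marked Pecam1-negative tumor arrays overlapped both other groups. On these deposited values every Tomato-negative muscle array read below every unmarked tumor array. After centring on the array medians, used below for comparing tissues, these groups overlapped (7.32 to 7.93 in muscle and 7.66 to 8.03 in tumor). The changes were 2.41 ± 0.21, 2.46 ± 0.18 and 2.08 ± 0.18 in the 3 comparisons (limma, adjusted p = 6.53e-08, 5.79e-09 and 5.45e-08). A second probe set, shared between Ets1 and Taok1 and not used, had group means between 8.96 and 9.56, and what each gene adds to it cannot be told apart.

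Of the SoxF genes, Sox7 read 8.76, 8.59 and 8.79 in Tomato-positive and 5.47, 4.33 and 4.68 in Tomato-negative muscle cells. In tumor it read 8.96, 8.95, 9.10 and 8.49 in Pecam1-positive cells, 4.81, 4.83, 5.13 and 4.78 in marked Pecam1-negative cells, and 4.85, 4.84, 4.39 and 5.35 in unmarked cells. Outside the endothelial groups Sox7 sat between the 32.9th and 56.4th percentile of the probe sets of its array, where a signal and background are hard to separate without detection calls. It was higher by 3.88 ± 0.25 in muscle and by 3.99 ± 0.22 and 4.02 ± 0.22 over the marked and unmarked Pecam1-negative tumor cells (limma, adjusted p = 1.39e-09, 9.43e-11 and 9.03e-11).

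Sox17, the member best known from arterial endothelium, read 9.32, 9.53 and 8.89 in Tomato-positive and 6.27, 6.40 and 6.07 in Tomato-negative muscle cells. Among tumor arrays it read 8.92, 9.06, 9.04 and 9.33 in Pecam1-positive cells, 6.10, 5.78, 5.92 and 5.66 in marked Pecam1-negative cells, and 5.87, 6.05, 5.93 and 5.89 in unmarked cells. The unmarked tumor arrays lay within the range of the marked Pecam1-negative ones. Sox17 was higher by 3.00 ± 0.15 in muscle, 3.23 ± 0.13 over marked and 3.16 ± 0.13 over unmarked tumor cells (limma, adjusted p = 8.66e-11, 2.92e-12 and 4.58e-12).

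Sox18, which acts in vascular and lymphatic development, read 9.36, 9.54 and 9.37 in Tomato-positive and 5.35, 5.45 and 5.42 in Tomato-negative muscle cells. In tumor it read 10.29, 10.19, 9.74 and 9.48 in Pecam1-positive cells, 7.26, 7.04, 7.27 and 7.65 in marked Pecam1-negative cells, and 5.35, 5.68, 5.90 and 5.78 in unmarked cells. The marked Pecam1-negative tumor cells held a level of their own, above every unmarked array and below every endothelial one. In the Tomato-negative cells of both tissues Sox18 sat between the 48.8th and 57.6th percentile of its array, where signal and background are again hard to separate, which limits the size of the changes against them. Sox18 was higher by 4.02 ± 0.19 in muscle, by 2.62 ± 0.17 over marked Pecam1-negative tumor cells and by 4.24 ± 0.17 over unmarked ones (limma, adjusted p = 4.56e-11, 7.54e-10 and 1.99e-12).

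Tal1 read 6.06, 6.47 and 6.38 in Tomato-positive and 5.52, 5.08 and 4.89 in Tomato-negative muscle cells. The tumor values were 6.38, 5.90, 5.52 and 6.34 in Pecam1-positive cells, 4.44, 4.71, 4.93 and 4.30 in marked Pecam1-negative cells, and 4.66, 4.86, 5.02 and 4.83 in unmarked cells. The probe set sat between the 31.3rd and 71.0th percentile of its array in all groups. The Tomato-positive arrays of muscle stood above the Tomato-negative ones, and the Pecam1-positive arrays of tumor above the other tumor arrays, while Pecam1-positive tumor repeat 3 and Tomato-negative muscle repeat 1 both read 5.52. The change was 1.14 ± 0.22 in muscle and 1.44 ± 0.19 and 1.19 ± 0.19 in tumor (limma, adjusted p = 0.000417, 6.91e-06 and 6.30e-05).

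Lmo2 read 6.49, 6.38 and 6.17 in Tomato-positive and 5.81, 5.99 and 6.01 in Tomato-negative muscle cells. Tumor arrays gave 7.75, 7.21, 7.63 and 7.49 in Pecam1-positive cells, 5.59, 6.11, 5.96 and 6.14 in marked Pecam1-negative cells, and 6.81, 6.83, 6.56 and 6.52 in unmarked cells. On these deposited values the tumor endothelial arrays were above all others. The unmarked tumor arrays were above those of Tomato-positive muscle cells and of both other non-endothelial groups. After centring on the array medians, unmarked tumor (6.41 to 6.72) and Tomato-positive muscle arrays (6.44 to 6.70) overlapped. In tumor Lmo2 was higher by 1.57 ± 0.14 over marked and by 0.84 ± 0.14 over unmarked Pecam1-negative cells (limma, adjusted p = 3.81e-08 and 7.22e-05). In muscle the change was 0.41 ± 0.16 (limma, adjusted p = 0.0442) and did not pass with the block. Nor did it pass without the filter on dim genes, with array weights or with repeats as a random block (limma, adjusted p = 0.0530, 0.119 and 0.0620). With the third muscle repeat alone the change was 0.16. The following concerns the main fit of this muscle change. Omitting each array in turn gave adjusted p of 0.0333 to 0.144 for it, and the call was lost in 5 of the 6 cases, all but the one without the Tomato-positive array of repeat 3.

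**Figure D2:**
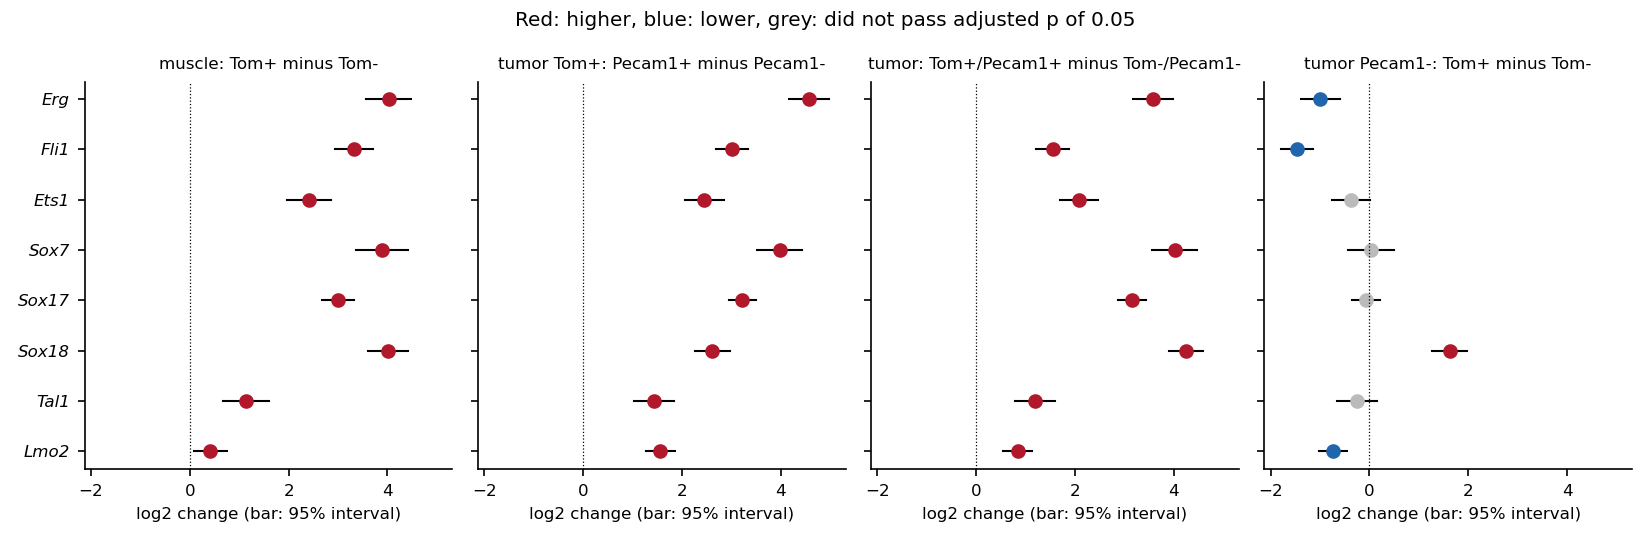
Log2 change of each gene (points, with the 95% interval) in 4 comparisons within a tissue; red is higher, blue lower and grey did not pass an adjusted p of 0.05. All 8 genes are higher in the endothelial group in the first 3 panels (Lmo2 in muscle not with repeats as blocks), and in the fourth Sox18 passed as higher in marked Pecam1-negative tumor cells, with Erg, Fli1 and Lmo2 lower.

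The 8 genes did not move together between the Pecam1-negative tumor populations. Sox18 was higher in Tomato-positive than in Tomato-negative cells, by 1.62 ± 0.17 on the log2 scale or 3.08-fold (limma, adjusted p = 5.77e-06), in 4 of 4 repeats by 1.35 to 1.91. Thus 1 of 8 genes was higher, against 13.4% of all genes. Erg, Fli1 and Lmo2 were lower, 3 of 8 genes against 12% of all genes, and the other 4 did not pass. The median change was -0.31, beside 0.03 over all tested genes. With repeats as blocks the same 4 calls were made, where 8.04% of all genes were higher and 8.78% lower.

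Fli1 was lower in the marked cells by 2.76-fold, with a log2 change of -1.47 ± 0.15 (limma, adjusted p = 7.08e-06), and the 4 arrays of each group did not overlap. Lmo2 changed by -0.73 ± 0.14 (limma, adjusted p = 0.000812), again without overlap. Erg changed by -1.0 ± 0.19 (limma, adjusted p = 0.000976), but in repeat 3 the marked array was higher by 0.03 and the groups overlapped. Ets1 changed by -0.37 (95% interval -0.76 to 0.01; limma, adjusted p = 0.152), and it passed without the marked array of repeat 4 (-0.53, adjusted p = 0.0404). The intervals for the remaining genes were -0.42 to 0.49 for Sox7, -0.35 to 0.21 for Sox17 and -0.65 to 0.15 for Tal1.

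Within the SoxF family the members were also set against each other in each array, a comparison chosen after the values were seen and so given without a test. Sox18 minus Sox17 was 1.17 to 1.98 in the 4 marked and -0.51 to -0.02 in the 4 unmarked Pecam1-negative arrays. Sox18 minus Sox7 was 2.14 to 2.87 in marked and 0.43 to 1.52 in unmarked cells. For both pairs the groups did not overlap, while Sox17 minus Sox7 overlapped (0.78 to 1.29 and 0.55 to 1.54).

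Markers of other cell types moved with these results, and their part in the results was not tested. The blood endothelial markers did not differ as a group between the Pecam1-negative populations: their array means overlapped (5.98 to 6.30 against 5.74 to 6.45), 1 of 12 was higher and 1 lower, and their median change was -0.07. The higher one was Cdh5, the endothelial cadherin (1.07, adjusted p = 0.00207), and the lower one was the receptor gene Flt1 (-0.77, adjusted p = 0.0412, and 0.116 with the block). Of the 6 lymphatic endothelial markers measured, Prox1, the master regulator of lymphatic fate, was higher by 1.55 and Pdpn by 0.42, and Lyve1 was lower by 0.84. Pdpn did not pass with the block (adjusted p = 0.0775). The lymphatic array means overlapped at 6.93 to 7.10 and 6.84 to 7.09. Beside the higher Sox18 stood higher myogenic genes, 8 of 8 with and without the block (median 1.62), with array means of 9.05 to 9.60 in marked and 7.07 to 8.30 in unmarked cells. They included Ttn, the giant sarcomere protein (1.83), the embryonic myosin Myh3 (1.87) and the myogenic factors Myod1 (1.23) and Myf5 (1.67). Beside the lower Erg, Fli1 and Lmo2 stood lower leukocyte markers: 8 of 8 pan-leukocyte genes (array means 7.13 to 7.51 in marked and 8.58 to 9.79 in unmarked cells), 10 of 10 macrophage, 6 of 6 neutrophil, 6 of 6 mast cell and 8 of 9 lymphocyte genes tested.

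**Figure D3:**
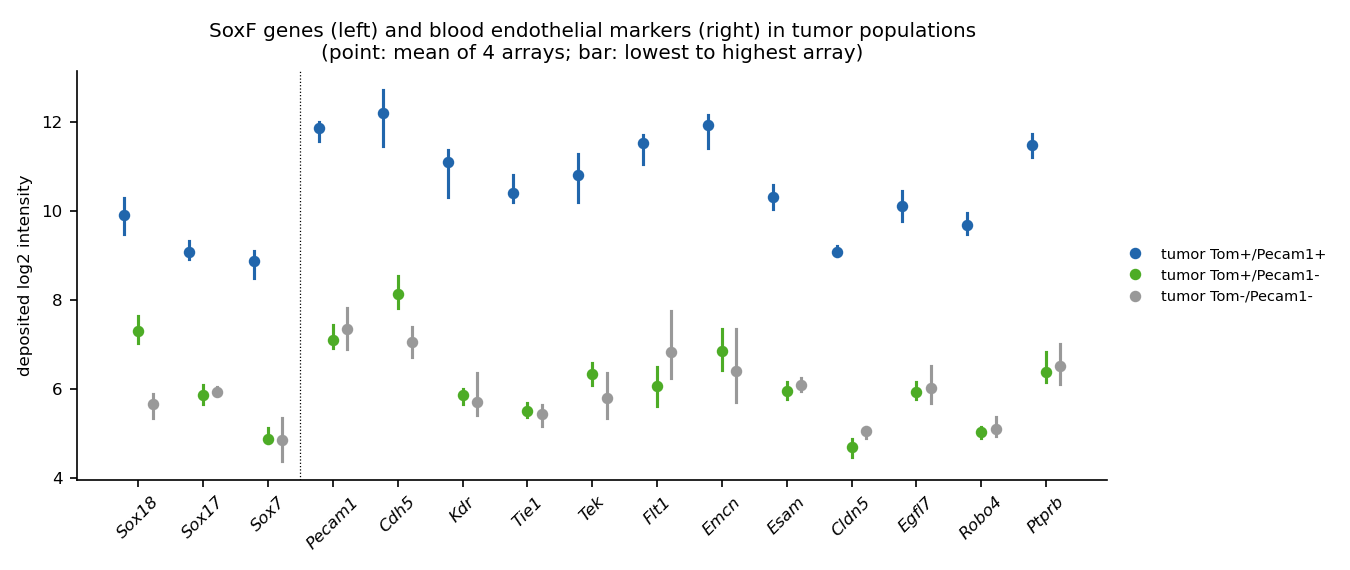
Deposited log2 intensity of the SoxF genes and 12 blood endothelial markers in the 3 tumor groups (point: mean of 4 arrays; bar: lowest to highest array). Between the Pecam1-negative groups Sox18 and Cdh5 are higher in Tom+ cells without overlap. Cldn5 is lower in Tom+ cells without overlap but did not pass (limma, adjusted p = 0.104), while Sox17, Sox7 and Pecam1 overlap.

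The Tomato mark went with these genes less in Pecam1-negative tumor cells than in muscle. The marked minus unmarked change in Pecam1-negative tumor cells was lower than that in muscle for 8 of 8 genes, against 18.5% of all genes (limma, Benjamini-Hochberg adjusted p from 2.66e-10 for Fli1 to 0.000989 for Tal1). The difference of changes was -5.02 for Erg, -4.79 for Fli1, -2.79 for Ets1, -3.85 for Sox7, -3.07 for Sox17, -2.39 for Sox18, -1.39 for Tal1 and -1.14 for Lmo2. The tumor populations here were sorted as Pecam1-negative, while the labels name no Pecam1 gate for muscle, so the gate differed between the tissues. The 12 blood endothelial markers were lower in this contrast as well, 12 of 12.

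Levels in tumor and muscle were compared after each array was centred on its own median, because the medians lay apart (5.04 to 5.10 in muscle, 5.41 to 5.44 in tumor). Centring shifted the median change of all genes by about 0.35 log2: with deposited values 90.5% of the genes called between the endothelial groups were higher in tumor, and with centred values 45.8%. The corresponding shares were 77.9% and 50.2% for marked Pecam1-negative tumor against marked muscle cells, and 83.5% and 48.8% for the unmarked cells. Changes of the size of this shift therefore depend on the scale, and all values below are centred unless stated. All tumor groups were sorted by Pecam1, while the labels name no Pecam1 gate for muscle. In each comparison of tumor with muscle below, the gate and the tissue therefore cannot be told apart.

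Between the endothelial groups, Lmo2 was higher in tumor, and this held on all 3 scales tried. It rose by 0.82 ± 0.14 on the log2 scale (limma, adjusted p = 0.000402), a 1.76-fold difference, by 0.77 after quantile normalization and by 1.17 with deposited values. Thus 1 of 8 genes was higher, against 15.7% of all genes. Fli1, Sox17 and Tal1 were lower on centred values, 3 of 8 genes against 18.5% of all genes, and these calls were not made on every scale.

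Fli1 changed by -0.53 ± 0.16 (limma, adjusted p = 0.0182), Sox17 by -0.51 ± 0.14 (adjusted p = 0.00869) and Tal1 by -0.62 ± 0.21 (adjusted p = 0.0273). With deposited values these became -0.18, -0.16 and -0.27 and none passed (adjusted p = 0.380, 0.374 and 0.286). After quantile normalization Sox17 and Tal1 passed and Fli1 did not (adjusted p = 0.107). Fli1 was lost without any one of 4 arrays (Tomato-positive muscle repeats 2 and 3, Pecam1-positive tumor repeats 1 and 2; adjusted p up to 0.0628), Sox17 without muscle repeat 2 (adjusted p = 0.0620), and Tal1 without muscle repeats 2 or 3 or tumor repeats 2 or 3 (adjusted p up to 0.101). Without Pecam1-positive tumor repeat 4, whose leukocyte and myogenic means were the highest of its group in the deposited values, the same 4 genes were called (Fli1 -0.68, Sox17 -0.59, Tal1 -0.72 and Lmo2 0.83; adjusted p = 0.00264, 0.00474, 0.0174 and 0.000952). That array read highest of its group for Fli1 and lowest for Ets1, Sox7 and Sox18. For the genes that did not pass, the centred change and its 95% interval were -0.14 (-0.57 to 0.29) for Erg, -0.09 (-0.50 to 0.32) for Ets1, -0.19 (-0.69 to 0.31) for Sox7 and 0.14 (-0.24 to 0.53) for Sox18. With deposited values the signs of Erg, Ets1 and Sox7 turned (0.21, 0.26 and 0.16) and Sox18 passed at 0.50 (adjusted p = 0.0280).

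**Figure D4:**
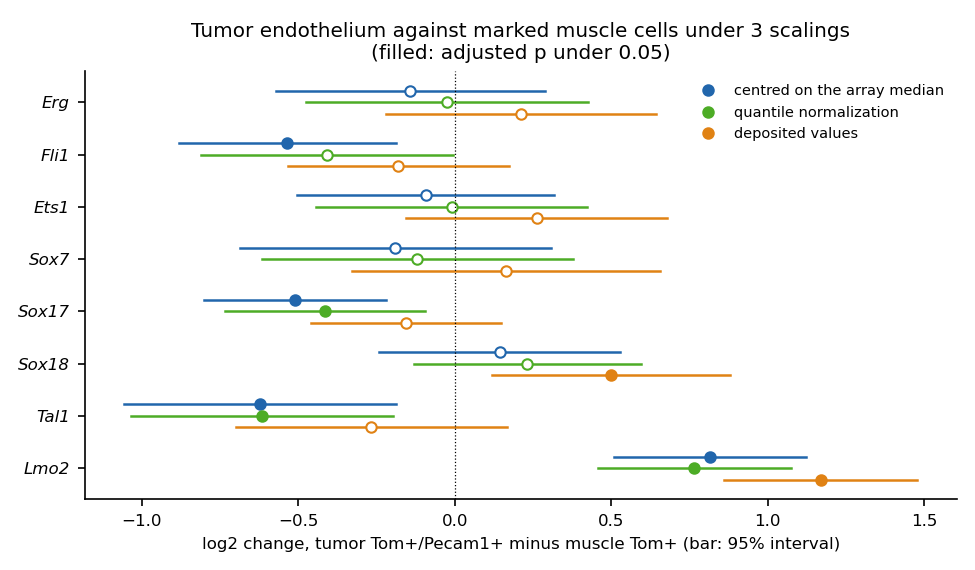
Log2 change (horizontal axis, with the 95% interval) of the 8 genes in tumor Tom+/Pecam1+ against muscle Tom+ cells under 3 scalings; filled points passed an adjusted p of 0.05. Lmo2 is filled and to the right of 0 under every scaling shown, and the orange points, from deposited values, lie to the right of the blue centred ones for each gene.

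Other endothelial genes moved between these 2 groups too. Of the blood endothelial markers 1 of 12 was called, Tie1, a vessel receptor kinase, higher by 0.52. Of the 6 lymphatic markers 5 were higher, with array means of 5.44 to 5.72 in muscle and 6.59 to 6.94 in tumor, namely Mmrn1 (1.28), Flt4 (0.88), Reln (0.75), Lyve1 (0.74) and Pdpn (0.72). Of 8 pericyte and smooth muscle genes 5 were lower in tumor (median -1.02), Kcnj8 (-1.66), Myh11 (-1.56), Pdgfrb (-1.31), Acta2 (-1.14) and Rgs5 (-0.90), with overlapping array means of 7.38 to 8.79 in muscle and 7.36 to 7.78 in tumor. Of 10 macrophage genes 3 were lower (Lyz2 by 1.33, Csf1r by 0.79 and Tyrobp by 0.68) and Cd14 was higher (2.05). Among the pan-leukocyte genes Lcp1 was higher (0.66), 1 of 8, and the other 7 did not pass. Of 7 fibroblast and tendon genes Dcn (1.30) and Lum (0.97) were higher. Of 7 salivary gland genes tested 4 were lower in tumor (median -0.98). The part of these markers in the results was not tested.

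Against marked muscle cells, marked Pecam1-negative tumor cells were lower for 8 of 8 genes, where 29.2% of all genes were. The changes ran from -0.74 for Lmo2 and -2.05 for Tal1 to -4.71 for Erg (limma, adjusted p = 0.000306, 1.99e-07 and 4.96e-12). Muscle repeat 3 was the one with salivary gland markers at the level of the tumor arrays (4.61 in Tomato-positive and 4.66 in Tomato-negative cells), and with that muscle repeat alone Lmo2 no longer passed (-0.60, adjusted p = 0.0508).

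In the unmarked cells, Fli1 and Lmo2 were higher in tumor than in muscle, 2 of 8 genes against 23.8% of all genes, and Sox17 and Tal1 were lower, 2 of 8 against 24.9%. Fli1 rose by 1.26 ± 0.16 (limma, adjusted p = 9.56e-06) and Lmo2 by 0.41 ± 0.14 (adjusted p = 0.0274). Sox17 changed by -0.65 ± 0.14 (adjusted p = 0.000909) and Tal1 by -0.65 ± 0.21 (adjusted p = 0.0146). Fli1 passed under each scaling, while Sox17 and Tal1 did not pass with deposited values (-0.31 and -0.32). With deposited values Erg and Ets1 passed as higher in tumor (0.65 and 0.59; limma, adjusted p = 0.0111 and 0.0174). Lmo2 was lost without Tomato-negative muscle repeats 1 or 2 or unmarked tumor repeats 1 or 2 (adjusted p up to 0.106), Tal1 without muscle repeat 1 (adjusted p = 0.0918), and Erg, at 0.32, passed without unmarked tumor repeat 3 (0.54, adjusted p = 0.0134). Beside these changes 8 of 8 pan-leukocyte, 10 of 10 macrophage and 6 of 6 neutrophil genes were higher and 11 of 12 blood endothelial markers were lower in the unmarked tumor cells. Their part in the results was not tested.

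The 5 groups fell into an order of centred means for each gene. For Erg, Ets1, Sox7 and Sox18 the 2 endothelial groups headed the order. The difference between them did not pass (limma, adjusted p = 0.624, 0.745, 0.565 and 0.575). For Fli1, Sox17 and Tal1 muscle endothelium stood first, and for Lmo2 tumor endothelium. In the lower part of the order, Fli1 stepped down from unmarked tumor cells (8.93) to unmarked muscle cells (7.67) (limma, adjusted p = 9.56e-06). Marked Pecam1-negative tumor cells came last (7.47), and their difference from unmarked muscle cells did not pass (limma, adjusted p = 0.337). Erg was lowest in marked Pecam1-negative tumor cells, below unmarked muscle cells by 0.68 (limma, adjusted p = 0.0119). The size of this step depends on the scale. With deposited values the group means were 5.77 and 6.11, and the arrays overlapped (5.59 to 6.14 and 5.94 to 6.36). Sox18 in marked Pecam1-negative tumor cells (7.20) came next after the endothelial groups, above unmarked muscle cells (5.63) (limma, adjusted p = 2.91e-06). The difference of unmarked muscle from unmarked tumor cells (5.57) did not pass (limma, adjusted p = 0.793). Lmo2 in muscle endothelium (6.58) and in unmarked tumor cells (6.57) did not pass as different either (limma, adjusted p = 0.941). With deposited values, however, every unmarked tumor array (6.52 to 6.83) read above every muscle endothelium array (6.17 to 6.49).

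Genes of similar profile were found by the root mean square difference of the 5 centred group means, each gene taken against its own mean. Nearest to Erg were S1pr1, a sphingosine-1-phosphate receptor of endothelium (0.14), Slfn3 (0.20) and Adgrg1 (0.22). Nearest to Fli1 were St8sia4 (0.14), Papss2 (0.22) and Pdgfd (0.22), and nearest to Ets1 were Elk3, another ETS factor (0.05), Fam43a (0.07) and Adgrl2 (0.09). Sox7 lay nearest to Adcy4 (0.10), Cd300lg (0.12) and Nova2 (0.13), and Sox17 to the adhesion gene Icam2 (0.06), Ica1 (0.11) and Nos3, the endothelial nitric oxide synthase (0.13).

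For Sox18 the nearest genes were the junction gene F11r (0.47), the ephrin gene Efna1 (0.49) and Gbp9 (0.53), a wider gap than for any other of the 8 genes. Tal1 lay nearest to Dusp3 (0.07), Gng11 (0.08) and Stox1 (0.11), and Lmo2 to Tsc22d3 (0.16), Spock2 (0.17) and Prr15 (0.17). Within the 8 genes, Erg and Sox7 were nearest to each other (0.33), as were Fli1 and Ets1 (0.45). Genes outside the 8 lay nearer in each case. Among 14635 genes Sox7 ranked 13th for Erg and Erg 25th for Sox7, while Ets1 ranked 44th for Fli1 and Fli1 203rd for Ets1. These are descriptions over 5 group means.

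Genes related to the 8 members are described by counts and medians. Of all tested genes 19.1% were higher and 20.5% lower in marked than in unmarked muscle cells. In Pecam1-positive against marked Pecam1-negative tumor cells these shares were 21% and 23.6%. Between marked and unmarked Pecam1-negative tumor cells they were 13.4% and 12%, and some counts below lie near such shares. Of 17 other ETS factors tested, 8 were higher and 2 lower in Tomato-positive than in Tomato-negative muscle cells (median 0.11, beside -0.00 over all genes), and 7 were higher and 6 lower in Pecam1-positive than in marked Pecam1-negative tumor cells (median 0.03, beside 0.01; 6 and 4 with the block). Elk3, a ternary complex factor, rose by 2.30 and 2.35 in these comparisons. In the Pecam1-negative tumor populations 3 were higher and 6 lower in marked cells (median -0.13, beside 0.03). The lower ones included Spi1, the myeloid factor PU.1 (-1.89), its relative Spic (-1.30) and Etv3 (-1.09), beside the lower leukocyte markers given above.

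Of 13 other Sox factors tested, 1 was higher and 5 lower in marked muscle cells (median -0.28), and 4 were higher and 5 lower in Pecam1-positive tumor cells (median -0.03). With the block 2 were higher and 4 lower in the tumor comparison, and Sox3 (0.30), Sox21 (0.22) and Sox4 (-0.87) no longer passed (adjusted p = 0.0619, 0.122 and 0.108). Sox9, a factor of cartilage and tendon precursors, changed by -2.06 and -3.26, and Sox6 by -2.45 and -2.09. Between the Pecam1-negative tumor populations Sox9, Sox6 and Sox8 were higher in marked cells (1.12, 0.95 and 0.97) and Sox10, a factor of Schwann cells, was lower (-0.62).

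Of 15 Tal1 complex partners tested, 9 were higher and 3 lower in marked muscle cells (median 0.76), and 6 were higher and 4 lower in Pecam1-positive tumor cells (median 0.42). Ldb2, an adaptor of LIM proteins, rose by 1.58 and 2.64, while Runx1, the blood stem cell factor, changed by -2.56 and -3.37 and Ssbp2, which stabilises the Ldb adaptors, by -2.01 and -2.47. In marked against unmarked Pecam1-negative tumor cells 5 were higher and 1 lower (median 0.29), with Gata2, a partner of Tal1 in endothelium, higher by 1.02 (adjusted p = 0.00252) and the Tal1 relative Lyl1 lower by 1.12 (adjusted p = 0.00344).

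Of 16 other endothelial transcription factors tested, 10 were higher and 3 lower in marked muscle cells (median 0.92), and 11 were higher and 3 lower in Pecam1-positive tumor cells (median 1.15). With the block 11 were higher and 1 lower in tumor, where Hey1 (-0.53) and Foxc2 (-0.36) no longer passed (adjusted p = 0.0650 and 0.105). Bcl6b, a repressor enriched in endothelium, rose by 4.05 and 4.40 and Tcf15 by 1.89 and 3.30. Between the endothelial groups of the 2 tissues Tcf15 and Meox2, both capillary factors of muscle, were lower in tumor (-1.38 and -0.99), and Foxc2, a factor of lymphatic valves, was higher (1.02). Between the Pecam1-negative tumor populations 4 were higher and 6 lower in marked cells (median 0.03, beside 0.03 over all genes). With the block 2 were higher and 6 lower. In marked cells Hey1, a Notch target, was higher by 1.09, and Klf2, a flow-responsive factor, was lower by 1.07.

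Genes known as targets of these factors followed the endothelial groups. Of 23 tested, 22 were higher and 1 lower in marked muscle cells (median 2.94), and 21 were higher and 1 lower in Pecam1-positive than in marked Pecam1-negative tumor cells (median 3.8). Nos3 rose by 3.05 and 3.53, Tie1 by 3.47 and 4.88, and Robo4, an endothelial guidance receptor, by 3.83 and 4.66. Between the Pecam1-negative populations, where Sox18 was higher and Erg, Fli1 and Lmo2 lower, 5 targets were higher and 1 lower in marked cells (median 0.14, beside 0.03). The higher ones included Cdh5 (1.07), Notch1 (0.69), Ephb4, a venous receptor (0.64), and Eng, a TGF-beta coreceptor (0.60). With the block 4 remained higher, without Nrp1 (0.37, adjusted p = 0.127), and the lower one, Flt1, did not pass. Cdh5, Kdr, Tek, Tie1, Flt1, Cldn5, Egfl7, Robo4 and Esam belong to this list and to the blood endothelial markers above, so the counts are not independent.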

How the data were processed

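Gene expression was measured on 18 mouse arrays, 1 per sorted sample (3 or 4 per group). The values are log2 intensities deposited by the authors, 41345 probe sets per array, made with RMA and Partek per the submitters' processing notes. Versions, the order of steps and the array's genome build are not given in the sources used here. The number of arrays limits the precision.

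Probe sets with 1 gene symbol (23521) were kept, those with several (1814) or none (16010) left out, and a gene took the probe set of highest mean, giving 22180 genes. Genes above the 40th percentile of their array in at least 3 arrays were tested (16011). limma 3.58.1 in R 4.3.3 fitted 1 mean per group over all 18 arrays (13 residual degrees of freedom), with two-sided moderated tests and Benjamini-Hochberg adjustment within each comparison at 0.05. Figures used matplotlib 3.10.9. Scripts were tested on simulated data. The text names every member, Pecam1, from the lists described up to 4 genes of smallest adjusted p and all that passed where 5 or fewer did, and the 3 nearest profiles of each member. Other list genes, including some named to show the smaller direction, were chosen after their values were seen. The members and lists were chosen with earlier results of these data known.

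In muscle the repeat numbers pair the samples (same-numbered deviations r = 0.27 to 0.31, others -0.19 to -0.09). In tumor the check is void, since repeat means are equal in the deposited values. The alternatives were other filters, quantile normalization, centred or deposited values, array weights, only the groups compared, repeat blocks, the day 38 arrays left out, only the third muscle repeat, and each array left out. Promoter letters were read from RefSeq, where 2 of the 8 members had an entry.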

Additional observations from a re-analysis of the deposited data

Results flagged for a closer look

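In groups of 4 arrays, a single array stood far from the others for a pair of genes. Erg in unmarked Pecam1-negative tumor cells had repeat 3 at 6.11 and the other arrays at 6.94 to 7.07, a gap of 0.864 of the group's range. Sox7 in marked Pecam1-negative tumor cells had repeat 3 at 5.13 and the others at 4.78 to 4.83, a gap of 0.873 of the range. For independent arrays chance marks about 1 in 20 groups in this way. Tumor repeat means are equal in these values, so that rate need not hold here. In repeat 3, Erg read highest of its group in the Pecam1-positive (10.64) and marked Pecam1-negative arrays (6.14). Sox7 read highest in the Pecam1-positive array (9.10) and lowest in the unmarked one (4.39). Which array of repeat 3 departed thus cannot be told.

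The marked minus unmarked change differed between Pecam1-negative tumor cells and muscle for each of the 8 genes by limma's test of the difference itself: Erg (-5.02), Fli1 (-4.79), Ets1 (-2.79), Sox7 (-3.85), Sox17 (-3.07), Sox18 (-2.39), Tal1 (-1.39) and Lmo2 (-1.14), all on the log2 scale. The tumor cells were sorted as Pecam1-negative and the labels name no Pecam1 gate for muscle. The gate and the tissue therefore cannot be told apart in this contrast. Of all genes 18.5% were lower in it, as were 12 of 12 blood endothelial markers.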

How the results depend on the processing

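Of the values recomputed with 1 array left out, 494 kept direction and side of the threshold, 19 fell below it, 2 passed it and 5 changed sign. Under the other settings the numbers were 681, 19, 5 and 7. For tumor against muscle endothelium, deposited values turned the sign of Erg (0.21), Ets1 (0.26) and Sox7 (0.16), and Ets1 also turned with array weights (0.0073) and without the day 38 arrays (0.076). For the unmarked cells, deposited values turned Sox18 (0.27) and Sox7 (0.030). None of these passed the threshold. In the unmarked cells deposited values also let Erg (0.65) and Ets1 (0.59) pass as higher in tumor, while Sox17 and Tal1 did not pass. The number of members called between the endothelial groups was 4, against 2 with deposited values and 1 with only the third muscle repeat, and in the unmarked cells it was 4, against 2 with only that repeat. Leaving out each array gave 1 to 4 and 2 to 5 members called in these comparisons. It moved Sox7 between the Pecam1-negative tumor populations from -0.12 to 0.20, Ets1 between the endothelial groups from -0.17 to 0.076, and Sox7 and Sox18 in the unmarked cells from -0.57 to 0.012 and from -0.14 to 0.046. The cause was not tested. With the repeat number as a fixed block, muscle Lmo2 was lost (0.41, adjusted p = 0.122) and no other member's call within a tissue changed. No paired analysis was possible because, for tumor against muscle, the groups come from different animals. Array weights or leaving out the day 38 arrays let Ets1 pass as lower in marked Pecam1-negative tumor cells (-0.44 and -0.52). Intensities near background limit Sox7 and Tal1 outside endothelium and Sox18 in Tomato-negative cells, and Erg, Sox17 and Lmo2 sat between the 52.7th and 60.8th percentile in marked Pecam1-negative tumor cells.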
